A study of Rattus norvegicus with 21 samples.

Results

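Rat spinal cord cultures treated with acetaminophen for 4 hr were compared with cultures given only phosphate-buffered saline (PBS) for the same time, in a series on anti-inflammatory compounds in spinal cord injury. The comparison holds 6 of the 21 samples of the series, chosen by their labels: 3 labelled Acet and 3 labelled Injured 4 hr. RNA of each sample was hybridised on a 2-colour array beside RNA of a pool of PBS-treated 4 hr cultures. The Injured 4 hr samples are thus unpooled PBS cultures set against a pool of their own kind. The pool cancels in the difference between the groups only if it was the same RNA. The labels do not settle this: Acet titles name the reference PBS 4hr, and Injured 4 hr titles name it PBS 4hrpooled. Both groups were dissected, cultured cord, so that the injury of dissection and culture is shared, and neither is intact tissue. The labels give no strain, sex, age, cord segment or acetaminophen dose. They do not say whether the 3 replicates came from separate animals or cultures, so the scatter among replicates may be technical. Each p-value reflects no more than such scatter. Unless stated otherwise, the scatter was pooled over the groups of all 21 samples, and not taken from the compared groups alone.

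Acetaminophen is an analgesic that lowers fever and has little effect on inflammation outside the nervous system. It is known to reduce prostaglandin formation, in which Ptgs1 and Ptgs2 (cyclooxygenases 1 and 2) turn arachidonic acid into prostaglandin H2 and terminal synthases such as Ptges (microsomal prostaglandin E synthase) make the final products. Part of its dose is oxidised, mainly by Cyp2e1, to a reactive quinone imine that glutathione captures. Another metabolite is joined to arachidonic acid by Faah to give a ligand of Trpv1, a heat and pain channel. In the injured cord, prostaglandin E2 is made by glia, vessels and infiltrating cells, and meningeal fibroblasts deposit collagen in the scar.

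Values below are log2 ratios of sample over pool, centred on the median of each array's probes, so that 0 is the middle probe of that array and a difference of 1 is a doubling relative to it. The direction, sample over pool, follows the order of names in the sample titles and is likely, not stated. If it were the reverse, every difference below would change sign, and the calls given as lower would be higher. On the Acet arrays 4048, 4888 and 4796 probes were measured, with medians of 0.70, -0.78 and -0.71 before centring. On the Injured 4 hr arrays 4882, 4887 and 4915 were measured, with medians between -2.26 and -2.12. Centred ratios of array pairs correlated at 0.836 to 0.852 within Injured 4 hr, at 0.554 to 0.732 within Acet and at 0.391 to 0.738 between them, so the Acet arrays were the more variable. Acet replicate 1 had 1328 missing spots and is 1 of 10 sparse arrays of the series. Exact log2 values of ratios of whole numbers from 1 to 10 made up 4.15% to 4.87% of values on the Acet arrays and 0.468% to 0.655% on the Injured 4 hr arrays. That trace of how an array was read or processed divides the 6 arrays exactly as the treatment does, and the treatment and the handling of the arrays cannot be told apart. The number of arrays limits the precision, and a ratio carries no level, so markers could be checked only as measured: 54 of 55 neuronal, 19 of 19 astrocyte and 14 of 14 oligodendrocyte probes gave ratios in both groups.

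Acetaminophen-treated cultures differed from PBS cultures at 62 of 4733 probes tested (1.31%; limma, Benjamini-Hochberg adjusted p under 0.05), with 57 lower (1.2%) and 5 higher (0.106%). The genes that fell included the collagen chains Col1a1 and Col1a2, the secreted growth factor binding proteins Igfbp2 and Igfbp6, the protease inhibitor Timp1 and the prostaglandin E synthase Ptges. The 3 named genes that rose were Barhl1, Camkk2 and Cacnb1. In all 62 probes the values of the groups did not overlap. Over all probes tested, non-overlapping values with Acet lower were found at 20.4% and with Acet higher at 6.36%, and the median difference was -0.21. The excess of lower calls stands on this shifted background. It also depends on the centring: without it 3370 probes passed, all higher, and 33 of the 62 had the opposite sign. With centring on Gapdh 5 passed, all higher. Genes said to fall or rise here did so relative to the array median. In ratios corrected for a dependence on probe brightness and source plate (corrected ratios, with the mean Injured 4 hr ratio standing in for brightness), the median was 0.00. The stand-in is the mean of 1 of the compared groups and no intensity, so a shift that follows it is removed by construction, and these ratios are given beside the centred ones and not as a check of them. In them 43 probes passed (0.909%), 11 higher and 32 lower, of which 30 were also called in centred ratios with the same sign. Each replicate weighed on the count: without Acet replicates 1, 2 and 3 in turn it was 2, 122 and 11, and without Injured 4 hr replicates 1, 2 and 3 it was 1, 0 and 0, with 477, 467 and 450 probes at an unadjusted limma p under 0.05 against 638 with all arrays.

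**Figure D1:**
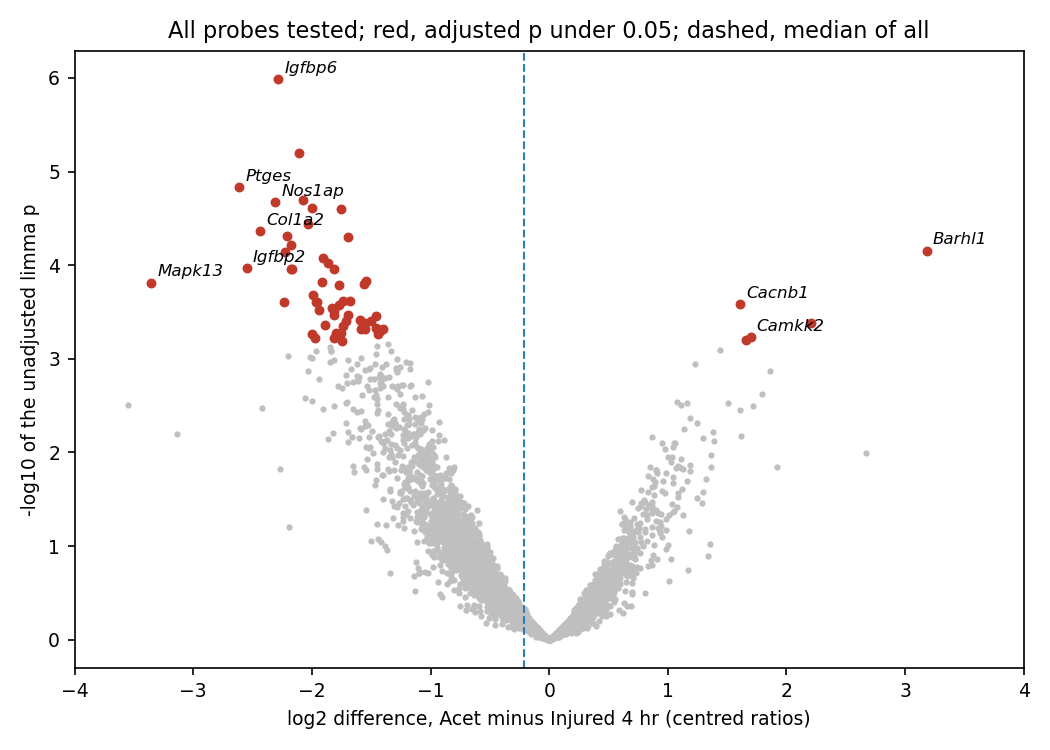
Log2 difference of Acet minus Injured 4 hr in centred ratios (x axis) against -log10 of the unadjusted limma p (y axis), 1 point per probe tested. The 62 red points passed an adjusted p of 0.05, 57 to the left and 5 to the right, and the dashed line marks the median of all probes at -0.21.

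Upstream sequences are shown for the 4 genes that fell most among the prostanoid and connective tissue members and are held in the RefSeq promoter table (build GRCr8), so that members lower together can be compared in sequence. Each was searched over the 250 bases before the annotated start on both strands for 3 common promoter motifs, spelled out with their counts after the sequences, and matches are in capitals. Ptges lies at chr3:34586988-34587237 on the minus strand, Igfbp2 at chr9:81864561-81864810, Igfbp6 at chr7:135154669-135154918 and the first 110 bases of the Col1a2 stretch, which hold its matches, at chr4:33518307-33518416, all 3 on the plus strand.
Ptges: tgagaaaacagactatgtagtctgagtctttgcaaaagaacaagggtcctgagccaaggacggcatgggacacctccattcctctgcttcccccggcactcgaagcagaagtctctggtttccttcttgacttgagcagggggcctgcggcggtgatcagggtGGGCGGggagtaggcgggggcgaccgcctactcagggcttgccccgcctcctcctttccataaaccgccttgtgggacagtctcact
Igfbp2: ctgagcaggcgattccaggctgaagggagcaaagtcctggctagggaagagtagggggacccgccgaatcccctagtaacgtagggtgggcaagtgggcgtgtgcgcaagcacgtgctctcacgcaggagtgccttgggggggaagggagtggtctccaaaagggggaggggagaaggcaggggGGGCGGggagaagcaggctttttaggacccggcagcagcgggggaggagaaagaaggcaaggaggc
Col1a2: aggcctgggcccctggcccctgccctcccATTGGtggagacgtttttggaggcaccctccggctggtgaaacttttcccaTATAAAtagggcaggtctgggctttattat
Igfbp6: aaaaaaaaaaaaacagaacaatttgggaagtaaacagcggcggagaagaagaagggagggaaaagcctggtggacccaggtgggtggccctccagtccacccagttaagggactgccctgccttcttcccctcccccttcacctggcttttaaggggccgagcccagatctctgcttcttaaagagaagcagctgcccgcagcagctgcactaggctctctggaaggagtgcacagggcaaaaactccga
Ptges and Igfbp2 each held 1 GGGCGG, Col1a2 held 1 TATAAA and 1 CCAAT (read as ATTGG from the opposite strand), and Igfbp6 held none of these letters in its window. Among 33469 rat promoters of the same length, 30.5% held GGGCGG, 12.9% TATAAA and 34% CCAAT. No motif was shared by all 4.

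Among 28 prostanoid and leukotriene probes, 1 fell and none rose, against 1.31% called over all probes. The list median was -0.13, above the median of all probes at -0.21. The member that fell was Ptges, the inducible synthase that turns the cyclooxygenase product into prostaglandin E2. Its centred ratios were -3.19, -3.33 and -1.76 in Acet replicates 1 to 3 and -0.36, 0.22 and -0.29 in Injured 4 hr. Every Acet array lay below every Injured 4 hr array. The difference was -2.62 ± 0.48 (SE, n = 3 and 3; limma adjusted p = 0.017), a ratio 6.13-fold higher in PBS relative to the array median, and -2.47 in corrected ratios (limma adjusted p = 0.012). The call was kept without Acet replicate 2 or 3, while the value stayed between -3.11 and -2.33 under each of the 6 omissions, and the other omissions gave adjusted p-values from 0.060 to 0.103.

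Ptgs2 is the inducible cyclooxygenase, and a second Ptgs2 probe on the array is not described here. Its centred ratios were -0.71, -0.27 and -0.03 in Acet and 1.15, 1.25 and 0.85 in Injured 4 hr for the probe described. These values did not overlap, as at 20.4% of all probes with Acet lower. The difference of -1.42 ± 0.39 (SE) missed the threshold (limma adjusted p = 0.069, and 0.088 in corrected ratios). Ptgs1, the constitutive cyclooxygenase, was on the array with 2 probes at -0.17 (95% interval -1.14 to 0.79) and -0.14 (-1.57 to 1.28), wide intervals on both sides of 0. Ptgds, the prostaglandin D synthase of meninges and glia, stood at -1.02 ± 0.76 (SE), with overlapping groups. The enzyme Hpgd, which inactivates prostaglandins, had the highest value of the list at 1.09 and did not pass (limma adjusted p = 0.281). The prostaglandin E receptors Ptger1, Ptger2, Ptger3 and Ptger4 had differences of -0.89, 0.02, -0.25 and -0.14, and none passed. The lower ratio of an inducible gene in bulk RNA can come with fewer cells of a type or with less RNA per cell, which cannot be told apart here or in the lists below.

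The centred ratio of Ptges was also low in the other compound groups, with means of -2.43 ± 0.81 in MP and -2.17 ± 0.48 in CKIN (SD, n = 3 each), against -2.76 ± 0.87 in Acet, -0.14 ± 0.32 in Injured 4 hr and -1.08 ± 0.47 in freshly dissected Uninjured cord. MP and CKIN are 2 further treatments set against the PBS pool at 4 hr, given in the labels by these letters only. Acet differed from MP by -0.33 (95% interval -1.31 to 0.65; limma adjusted p = 1) and from CKIN by -0.59 (-1.57 to 0.39; limma adjusted p = 0.544), so a difference among the 3 treatments was not detected, and the intervals are wide. Indo (indomethacin) and NS398 cultures had Ptges at -2.0 ± 0.53 and -1.46 ± 0.73 against their own ethanol and DMSO pools, which sets no comparison with Acet. Ptgs2 stood at 0.68 ± 0.80 in MP, and Acet minus MP was -1.02 (-1.83 to -0.21; limma adjusted p = 0.652). NS398 cultures had Ptgs2 at 3.26 ± 0.31 against the DMSO pool.

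**Figure D2:**
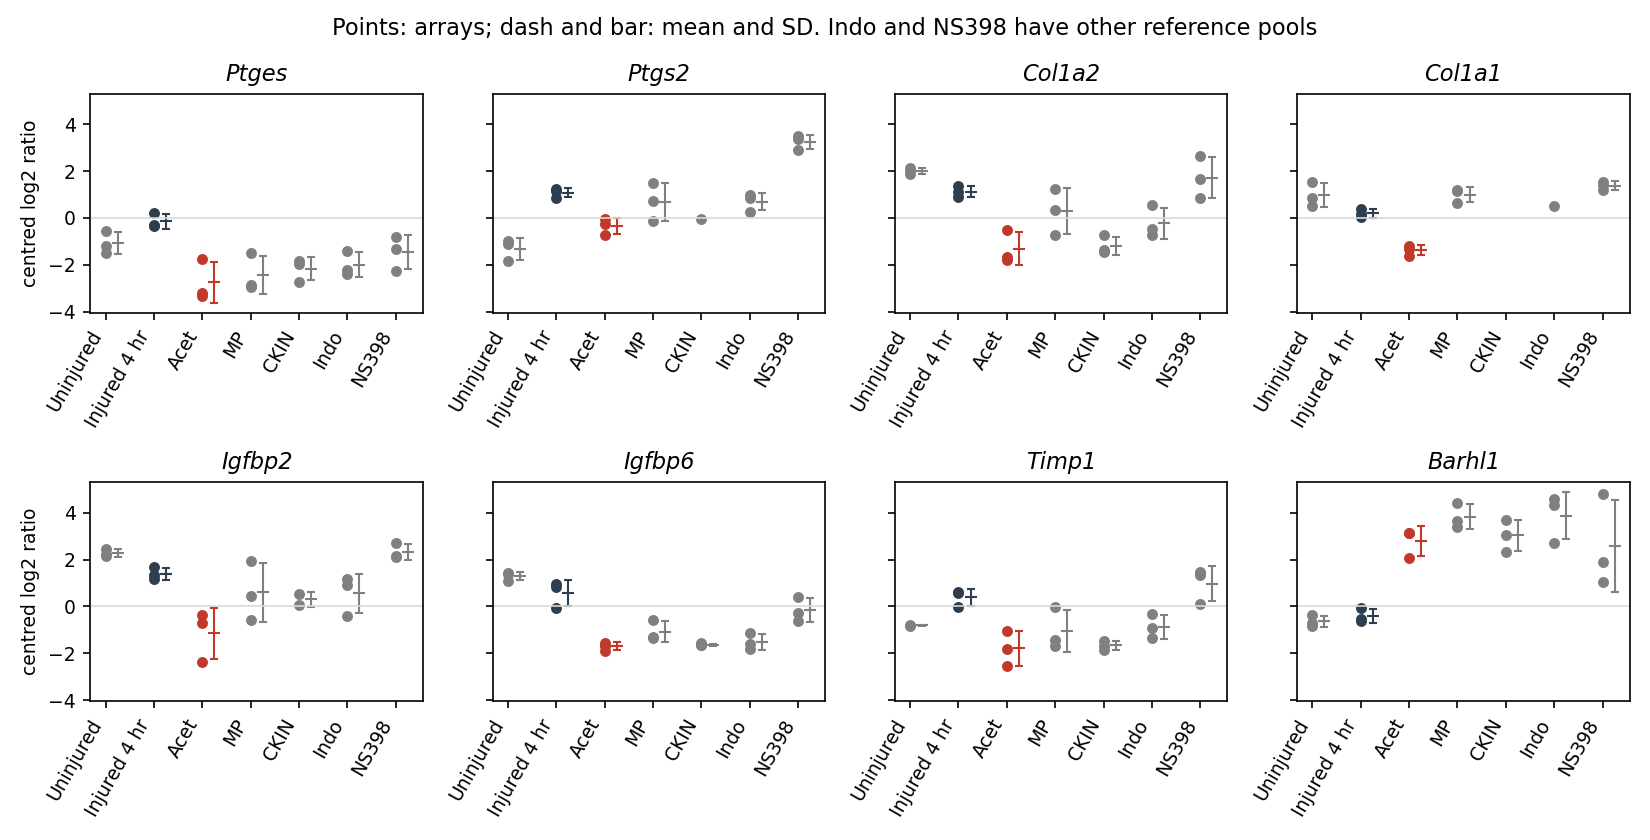
Centred log2 ratios (y axis) of 8 genes in the 7 groups of the series, with a point per array and the mean and SD beside each group. Acet is red and Injured 4 hr dark, and Ptges is low in each of the 5 compound groups while Barhl1 is high in them; Indo and NS398 have reference pools of their own.

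Connective tissue genes made up the list with the most calls, among lists chosen with earlier results of these data known. Its share of calls is thus a description and no independent support. Of 29 probes for meningeal and connective tissue markers, 5 fell and none rose (17.2%, against 1.31% of all probes), and the list median was -0.81, against -0.21 for all probes. In corrected ratios 4 fell, with a median of -0.33 against 0.00, so the shift of the list as a whole was smaller there. The mean centred ratio over the 24 probes measured on all 6 arrays was -0.94, -0.15 and -0.49 in Acet and 0.37, 0.41 and 0.37 in Injured 4 hr, with no overlap. Such separation with Acet lower was not particular to this list. Ribosomal proteins showed it (0.30, 1.75 and 1.02 against 1.91, 1.84 and 1.92), as did conjugating enzymes, NF-kB genes and microglia markers, among others. Neuronal, astrocyte and oligodendrocyte means overlapped. The count of connective tissue probes that fell depended on single arrays: it was 1, 7 and 1 without Acet replicates 1, 2 and 3, and 1, 0 and 0 without Injured 4 hr replicates 1, 2 and 3. The list holds Ptgds, which the prostanoid list holds too.

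Col1a2, a chain of type I collagen, had centred ratios of -1.79, -0.51 and -1.67 in Acet and 1.10, 1.36 and 0.90 in Injured 4 hr. All 3 Acet arrays were below 0 and all 3 PBS arrays above it, and the difference was -2.44 ± 0.48 (SE; limma adjusted p = 0.021), or 5.43-fold higher in PBS relative to the array median. Its partner chain Col1a1 gave -1.31, -1.19 and -1.63 in Acet against 0.16, 0.39 and 0.02, a difference of -1.56 ± 0.33 (SE; limma adjusted p = 0.031). A second Col1a1 probe showed -0.52, -0.59 and -0.33 against 0.49, -0.45 and 0.00. That probe did not pass, at -0.49 ± 0.45 (SE), and the lowest PBS value lay within the Acet range. Other collagen chains did not pass: Col3a1 stood at 0.09, Col5a1 at 0.26, Col5a2 at -0.07 and Col12a1 at 0.29, and the matrix genes Sparc and Fn1 at -0.37 and -0.28.

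The binding proteins of insulin-like growth factors are secreted carriers, and Igfbp2 and Igfbp6 are made in the meninges. Igfbp2 had ratios of -2.38, -0.37 and -0.72 in Acet against 1.19, 1.68 and 1.32. Acet replicate 1 was the lowest by far, and the difference of -2.55 ± 0.54 (SE; limma adjusted p = 0.026) was -1.94 without it, when it no longer passed (limma adjusted p = 0.151). Igfbp6 was the probe with the smallest p of the comparison. Its ratios were -1.89, -1.68 and -1.56 in Acet against -0.06, 0.82 and 0.97, a difference of -2.28 ± 0.35 (SE; limma adjusted p = 0.0048). It kept its call in 4 of the 6 omissions, and gave adjusted p-values of 0.088 and 0.080 without Injured 4 hr replicates 2 and 3. Igfbp3 at -1.32 and 2 probes of Igfbp5 at -1.36 and -1.31 did not pass.

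Timp1, an inhibitor of matrix metalloproteinases, had ratios of -2.55, -1.03 and -1.80 in Acet against 0.60, 0.57 and -0.02. The groups did not overlap, and the difference was -2.18 ± 0.46 (SE; limma adjusted p = 0.026). In corrected ratios it stood at -1.64 and did not pass (limma adjusted p = 0.066). Timp2 and Timp3 were at -0.43 and 0.35, and Mmp2, a gelatinase, at -1.24, none of them passing. Outside the list, Mgp, a matrix protein that restrains calcification, fell by 2.24 on the log2 scale (limma adjusted p = 0.038). Plau, the urokinase protease that starts matrix breakdown, fell by 1.45 (limma adjusted p = 0.044). Neither passed in corrected ratios, at -1.65 and -1.19.

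The 5 connective tissue genes were compared with the other groups. Fresh cord had higher centred ratios than Injured 4 hr for Igfbp2 (2.29 ± 0.15 against 1.40 ± 0.26), Col1a2 (2.02 ± 0.13 against 1.12 ± 0.23) and Igfbp6 (1.30 ± 0.18 against 0.58 ± 0.56, SD, n = 3 each). Timp1 was lower in fresh cord, at a mean of -0.81 without a value on every array, against 0.38 ± 0.35 in Injured 4 hr. These ratios are given without a test, and Gapdh too was far higher on the fresh cord arrays (centred ratios of 3.63 to 4.01). Against MP the list median was -0.59, with 0.04 over all probes, and 1 probe passed of 4378 tested (0.0228%): the first Col1a1 probe, at -1.37 ± 0.23 in Acet and 0.99 ± 0.32 in MP, a difference of -2.36 ± 0.34 (SE; limma adjusted p = 0.0045). The second Col1a1 probe differed from MP by -0.55 (95% interval -1.49 to 0.38). Col1a2 stood at 0.28 ± 0.98 in MP and differed by -1.60 (-2.60 to -0.60; limma adjusted p = 0.448), Igfbp2 by -1.75 (-2.87 to -0.64; limma adjusted p = 0.489), Timp1 by -0.74 (-1.69 to 0.22) and Igfbp6 by -0.63 (-1.35 to 0.09). Against CKIN the list median was -0.13, with 0.16 over all probes. Col1a2, Igfbp6 and Timp1 were at -1.18, -1.63 and -1.67 in CKIN, and Acet differed from it by -0.14 (-1.14 to 0.86), -0.08 (-0.80 to 0.65) and -0.13 (-1.08 to 0.82). Igfbp2 was at 0.30 on the 2 CKIN arrays that measured it, and Acet differed by -1.45 (-2.69 to -0.21, limma adjusted p = 0.229). Col1a1 could not be tested with its first probe, which had too few CKIN values, and differed by -0.56 (-1.61 to 0.48) with its second. Doses are not given, so these differences are between the samples as treated.

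**Figure D3:**
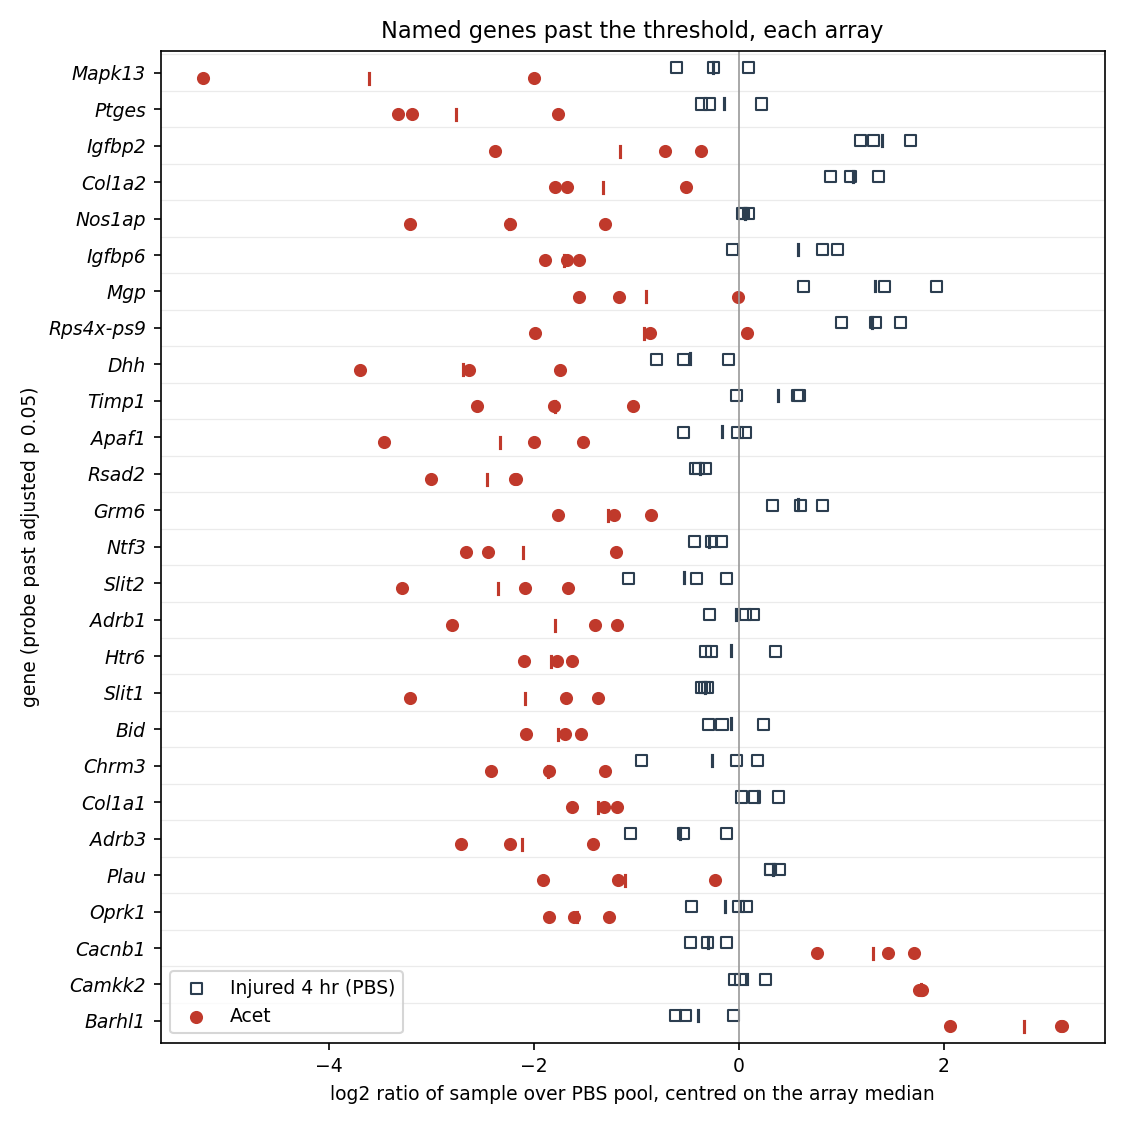
Centred log2 ratio of sample over PBS pool (x axis) for each named gene past the threshold (y axis), with Acet arrays as red circles, Injured 4 hr arrays as open squares and group means as short bars. The circles lie to the left of the squares for 24 of the 27 genes and to the right for Cacnb1, Camkk2 and Barhl1; Mapk13 has 2 Acet values.

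Markers of other tissues that a dissected cord can carry were read beside these genes. Blood and granulocyte markers had a median of -0.42 over 18 probes, and none passed. The haemoglobin probes Hbb and Hbb-b1 stood at -2.01 and -1.94 (limma adjusted p = 0.062 and 0.071), with ratios of -0.64, 0.89 and 0.23 against 2.12, 2.15 and 2.25 for Hbb. In corrected ratios both passed, at -1.30 and -1.28 (limma adjusted p = 0.024 each). The mean ratio over the 11 blood probes measured on all 6 arrays was -0.39 to -0.03 in Acet and 0.28 to 0.46 in Injured 4 hr. Schwann cell and root markers had a median of -0.08 over 9 probes; their lowest member Pmp22, a myelin protein that fibroblasts also express, was at -2.42 (limma adjusted p = 0.101) and passed in corrected ratios at -1.86. Endothelial and pericyte markers (21 probes, median -0.07) and skeletal muscle markers (15 probes, median -0.29) had no call, against 1.31% of all probes. Of the 18 blood probes 12 lay below 0 (66.7%), against 66% of all probes, and the part of these markers in the lower ratios of the genes above was not tested.

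The enzymes that handle acetaminophen gave no call. Over all probes 1.31% were called, a share at which lists of this size can hold none. Of 38 probes for cytochrome P450 and other oxidising enzymes, 29 for conjugating enzymes and 34 for glutathione and antioxidant defence, none passed, with medians of -0.21, -0.37 and -0.49. In corrected ratios these medians were -0.11, -0.17 and 0.02, again with no call. Cyp2e1 had ratios of -1.68, -0.58 and -0.65 in Acet against -0.11, -0.20 and -0.06, a difference of -0.85 ± 0.38 (SE; limma adjusted p = 0.323). Gclc, which limits glutathione synthesis, stood at -0.27 (95% interval -1.02 to 0.48), and Nqo1, a quinone reductase, at -0.08 (-0.90 to 0.74). Hmox1, the inducible haem oxygenase, had -0.74, 0.84 and 0.01 against 1.94, 2.32 and 1.57. These did not overlap, as at 20.4% of all probes with Acet lower. Its difference of -1.91 ± 0.58 (SE) did not pass (limma adjusted p = 0.102) and was -0.90 in corrected ratios. Sult1a1, a sulfotransferase, was at -0.26 (-1.07 to 0.55) and Gstp1, a glutathione transferase, at -0.75 (-2.08 to 0.58).

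Genes of the sensory and pain pathways had few calls, to be read against 1.31% of all probes. None of 15 endocannabinoid and TRP channel probes passed. Faah stood at 0.05 (95% interval -0.58 to 0.69), the cannabinoid receptor Cnr1 at -0.33 (-1.03 to 0.37) and Trpv1 at -1.52 ± 0.51 (SE; limma adjusted p = 0.159), with 2 Acet values of -1.75 and -1.72 against -0.49, 0.35 and -0.53. Of 35 opioid and pain peptide probes 1 fell (2.86%): Oprk1, the kappa opioid receptor, at -1.85, -1.61 and -1.26 in Acet against 0.08, -0.01 and -0.46, a difference of -1.44 ± 0.36 (SE; limma adjusted p = 0.045; 0.121 in corrected ratios). Tac1, the substance P precursor, was at -1.51 and did not pass (limma adjusted p = 0.066). Of 16 serotonin system probes 1 fell (6.25%), the receptor Htr6. Its ratios were -2.09, -1.77 and -1.62 against -0.32, -0.26 and 0.36, the difference was -1.76 ± 0.32 (SE; limma adjusted p = 0.017), and it passed in corrected ratios at -1.43. Grm6, a glutamate receptor best known from retinal bipolar cells, was the 1 probe of 40 (2.5%) for glutamate, GABA and glycine receptors that fell, by 1.86 on the log2 scale (limma adjusted p = 0.026), and it passed in corrected ratios at -1.48. The adrenergic receptors Adrb1 and Adrb3 and the muscarinic receptor Chrm3, which belong to none of the lists, fell by 1.77, 1.55 and 1.59. Chrm3 did not pass in corrected ratios at -1.15 (limma adjusted p = 0.159), and its second probe stood at -0.11. Centred means of the called probes were low in MP too: Oprk1 -1.47, Htr6 -1.94, Grm6 -1.36, Adrb1 -2.08, Adrb3 -2.16 and Chrm3 -1.66. In the same order Acet minus MP was -0.10, 0.11, 0.08, 0.29, 0.05 and -0.20, and none passed.

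Inflammatory genes showed no call in centred ratios: none of 44 cytokine and chemokine probes, 21 for NF-kB components and targets, 24 early response and 28 heat shock probes passed, with medians of -0.20, -0.22, -0.14 and -0.35. With 1.31% of all probes called, lists of this size can hold none. Ccl2, the chemokine that draws monocytes, had 2 probes at -1.53 ± 0.49 and -0.95 ± 0.40 (SE, limma adjusted p = 0.124 and 0.285), neither overlapping between the groups. Such separation with Acet lower was found at 9 of the 44 cytokine and chemokine probes, near the 20.4% of all probes. Cxcl1, which draws neutrophils, stood at -1.26, with -0.11, 0.23 and 0.06 in Acet against 1.43, 1.80 and 0.72. Il6 was at -0.55 (95% interval -1.56 to 0.47), Tnf at -1.0 (-2.12 to 0.12) and Il1a at 0.28 (-0.41 to 0.98). The 2 Il1b probes disagreed in sign, at 0.63 and -0.69, and neither passed. In corrected ratios Il3 and the early response gene Nr4a1 passed upward, at 1.39 and 1.11. Rsad2, an antiviral protein induced by interferon and outside these lists, fell in both scalings. Its ratios of -2.18, -3.0 and -2.18 in Acet against -0.32, -0.39 and -0.42 were far apart, and the difference was -2.07 ± 0.39 (SE; limma adjusted p = 0.017), or -2.03 in corrected ratios.

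Of 28 apoptosis probes 2 fell (7.14%): Apaf1, the core of the caspase-activating apoptosome, by 2.17 and Bid, which carries death receptor signals to mitochondria, by 1.70 on the log2 scale (limma adjusted p = 0.026 and 0.021). Bid had -2.07, -1.53 and -1.69 in Acet against 0.25, -0.16 and -0.30. Both passed in corrected ratios, while the list median was -0.11 in centred and 0.10 in corrected ratios. Apaf1 belongs to a set of 94 tested probes from the source plate numbered 43, of which 11 were called (11.7%, against 1.31% of all probes) and 6 in corrected ratios. Nos1ap, which binds neuronal nitric oxide synthase, the axon guidance ligands Slit1 and Slit2 and the neurotrophin Ntf3 lie on the same plate and fell by 2.31, 1.76, 1.81 and 1.82. Second probes of 2 of these genes from another plate stood at 0.12 for Slit1 and -0.68 for Ntf3 and did not pass. The part of the plate in these calls was not tested. In corrected ratios Apaf1 and Nos1ap passed at -1.80 and -1.88 and Slit1, Slit2 and Ntf3 stood at -1.47, -1.63 and -1.51, just short of the threshold (limma adjusted p = 0.055, 0.057 and 0.055). Centred means in MP were low too: Apaf1 -1.96, Bid -1.16, Nos1ap -2.33, Slit1 -1.70, Slit2 -1.76 and Ntf3 -2.68. In the same order Acet minus MP was -0.37, -0.60, 0.09, -0.39, -0.59 and 0.58, and none passed.

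Further genes among the largest falls were Mapk13 (p38 delta kinase), Dhh (desert hedgehog, a ligand from Schwann cells) and Rps4x-ps9. Their centred means in MP were low too, at -2.07 (from 2 MP arrays), -2.54 and -1.44. Acet minus MP was -1.54, -0.15 and 0.51, and none passed. Mapk13 was measured on 2 Acet arrays, at -1.99 and -5.22, against -0.24, 0.10 and -0.61. The Acet values lay more than 3 log2 units apart, the difference was -3.35 ± 0.69 (SE; limma adjusted p = 0.031), and in corrected ratios it was -3.03 and did not pass (limma adjusted p = 0.095). Dhh had -1.74, -2.63 and -3.69 against -0.80, -0.09 and -0.53, and fell by 2.21 (limma adjusted p = 0.021). Rps4x-ps9, annotated as a ribosomal protein pseudogene whose signal may be shared with its parent, fell by 2.23 and was the 1 call among 68 ribosomal protein probes (1.47%, against 1.31% of all). All 68 had a difference below 0, with a median of -0.87. In corrected ratios that median was -0.05 and 46 of 68 lay below 0, as the construction of these ratios would give for any class with high Injured 4 hr ratios. Gapdh, averaged over 53 spots, moved with it: 0.64, 2.26 and 1.44 in Acet against 2.15, 2.16 and 2.15, a difference of -0.70, and 0.02 in corrected ratios.

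**Figure D4:**
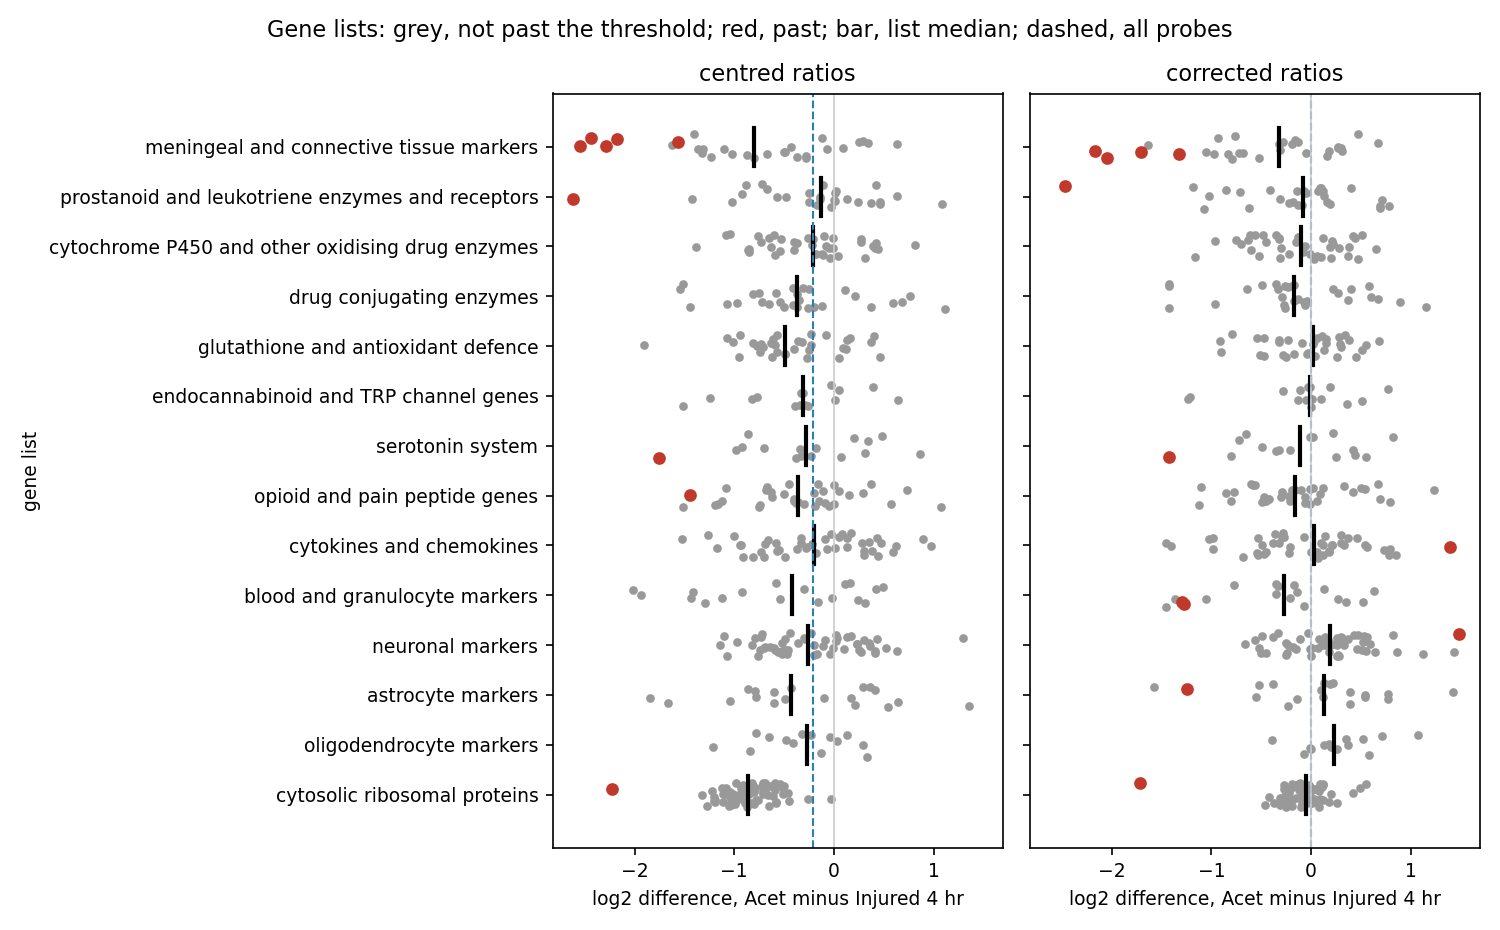
Log2 difference of Acet minus Injured 4 hr (x axes) for the probes of 14 gene lists (y axis), in centred ratios on the left and corrected ratios on the right. Probes past an adjusted p of 0.05 are red, bars are list medians and the dashed line is the median of all probes; ribosomal proteins move from -0.87 to -0.05 between the panels, and connective tissue markers from -0.81 to -0.33.

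**Figure D5:**
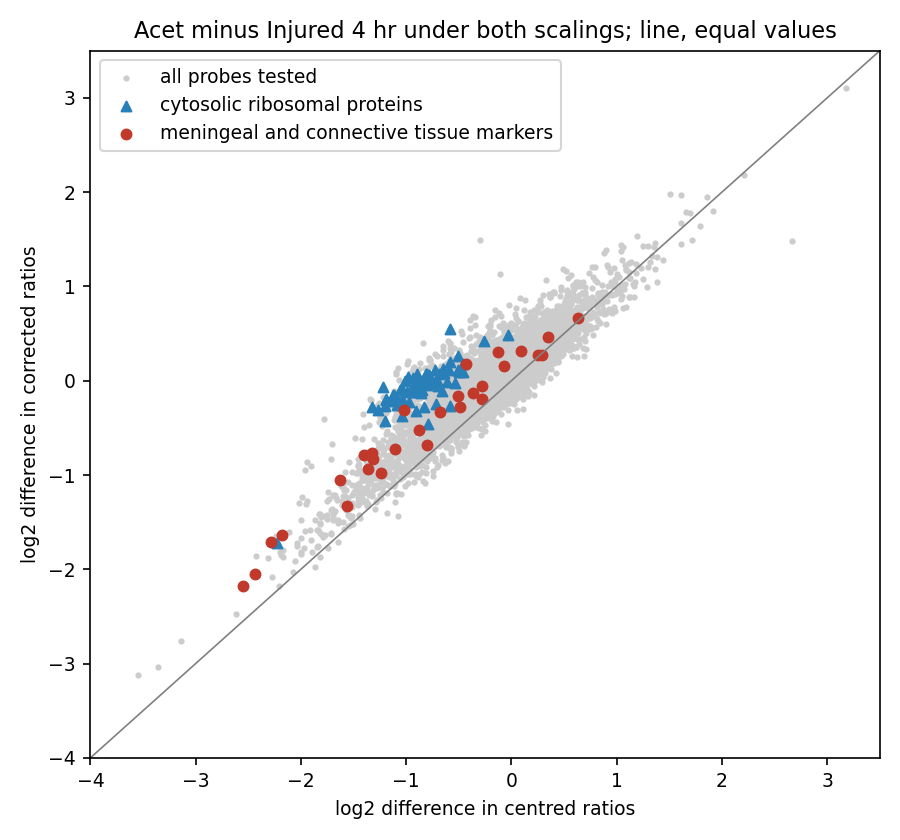
Log2 difference of Acet minus Injured 4 hr in centred ratios (x axis) and in corrected ratios (y axis), 1 point per probe, with ribosomal proteins as blue triangles, connective tissue markers as red circles and a line of equal values. The ribosomal cloud lies above the line, around -0.05 on the y axis, while Col1a2 and Igfbp2 stay below -2 on both axes.

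Few probes rose. Barhl1, a homeobox factor of dorsal interneurons, had ratios of 3.15, 3.14 and 2.07 in Acet against -0.05, -0.62 and -0.52. The difference of 3.18 ± 0.66 (SE; limma adjusted p = 0.024) is a ratio 9.08-fold higher than in PBS relative to the array median, and it passed in corrected ratios at 3.10. Barhl1 was high in every other compound group as well, at 3.83 ± 0.54 in MP, 3.03 ± 0.67 in CKIN, 3.87 ± 1.01 in Indo and 2.58 ± 1.98 in NS398 (SD, n = 3 each), and at -0.64 ± 0.25 in fresh cord. Acet differed from MP by -1.04 (95% interval -2.39 to 0.30) and from CKIN by -0.24 (-1.58 to 1.10). The groups with high values are those whose arrays carry many whole-number ratios, and the part of that difference between arrays was not tested beyond the fit with those ratios set as missing, where Barhl1 stood at 3.18. Camkk2, a kinase that activates AMP-activated kinase, had 1.78, 1.79 and 1.76 against 0.02, 0.26 and -0.04. It rose by 1.70 ± 0.42 (SE; limma adjusted p = 0.047), and missed the threshold in corrected ratios at 1.78 (limma adjusted p = 0.057). Cacnb1, a calcium channel subunit, was the 1 call among 91 voltage-gated channel probes (1.1%, near the 1.31% of all probes). It had 0.77, 1.71 and 1.45 against -0.12, -0.47 and -0.31, rose by 1.61 ± 0.37 (SE; limma adjusted p = 0.038), and passed in corrected ratios at 1.67.

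The 2 other probes that rose have no gene named here. Named genes next in order that did not pass were the retinoic acid receptor Rarb at 1.86, the kinase Map2k5 at 1.79, the lipid enzymes Scd2 (a desaturase) at 1.44 and Acsl3 (an acyl-CoA ligase) at 1.23, and the glucose transporter Slc2a2 at 1.08, with limma adjusted p from 0.056 to 0.095. Scd2 had 0.80, 1.19 and 0.69 in Acet against -0.95, 0.00 and -0.69, without overlap, as at 6.36% of all probes with Acet higher. Markers of the main cord cells showed no call in centred ratios, against 1.31% of all probes, so lists of this size can hold none. Their medians were -0.26 over 54 neuronal, -0.43 over 19 astrocyte, -0.27 over 14 oligodendrocyte and -0.44 over 14 microglia and macrophage probes. The corrected medians were 0.19, 0.13, 0.23 and 0.06. Gfap, the astrocyte filament, stood at -0.09 (95% interval -1.19 to 1.00) and Mbp, a myelin protein, at -1.21 (-2.39 to -0.03; limma adjusted p = 0.356). In corrected ratios the neuronal marker Map1b passed at 1.49 and Clu, an astrocyte chaperone, at -1.25, against -0.30 and -1.67 in centred ratios; the sign of Map1b thus depended on the scaling.

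Against CKIN, 6 of 3749 probes passed (0.16%), 5 higher in Acet (0.133%) and 1 lower (0.0267%). Pcyt1a, which limits phosphatidylcholine synthesis, was lower, at -0.45, -1.13 and -0.99 in Acet and 1.32 and 2.18 on the 2 CKIN arrays that measured it. Higher in Acet were Idi1, an enzyme of isoprenoid and cholesterol synthesis, Tmeff1, a transmembrane protein of neurons, Zeb1, a repressor of epithelial genes, Guca2b, a guanylate cyclase ligand known from the gut, and a probe with no gene named here. For Idi1, Tmeff1 and Zeb1 the Acet means of 1.40, 0.86 and 1.44 lay near those of Injured 4 hr, 1.36, 0.66 and 1.82, while CKIN was at -0.68, -1.25 and -0.10. Acet minus Injured 4 hr was 0.04 (95% interval -0.86 to 0.93), 0.20 (-0.60 to 1.01) and -0.38 (-1.03 to 0.26) for these 3 genes. The CKIN arrays had 1526, 1326 and 2284 missing spots, and all are sparse. With a term for sparse arrays Idi1 and Tmeff1 did not pass against CKIN (limma adjusted p = 0.133 and 0.0781), while Zeb1 did. In corrected ratios Tmeff1 passed, and Idi1 and Zeb1 did not. The comparisons with Injured 4 hr, MP and CKIN share the Acet arrays, and no probe passed in all 3.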

How the data were processed

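Log2 ratios of 21 2-colour arrays were used as deposited by the authors. Log base 2 was read from exact whole-number ratios, within 6e-05. The sources used here name no dyes, scanner, background correction or normalization. Blank cells were missing spots. Of 5376 probes, 4962 had a value and 4423 had 1 gene symbol, of which 4375 were updated by gene identifier through the RefSeq table (GRCr8). Gapdh spots (53) were averaged, and other probes were kept apart.

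Each array was centred on its probe median. All 21 arrays entered 1 fit with a coefficient per group in limma 3.58.1 (R 4.3.3), and probes needed 2 values a group. Benjamini-Hochberg adjustment covered all probes tested, at 0.05, 2-sided. Errors are the fit's SE. The script was tested on simulated data. Corrected ratios are residuals of a loess (span 0.4) of each array on the mean Injured 4 hr ratio, centred per source plate with at least 20 probes. The plate is the number that opens the probe identifier.

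Genes were named by rule: the 10 largest rises and falls with 1 sign in every Acet array, filled by p where fewer passed, up to 4 called members per list, and a panel of 25 genes. Other genes named were chosen after their values were seen. Members and the 26 lists were chosen with earlier results of these data known, and 3 S6 kinase probes that a name pattern had put among the ribosomal proteins were removed after the values were seen. Groups were treated as unpaired. Deviations of same-numbered Acet and Injured 4 hr arrays correlated at -0.03, -0.09 and 0.00, which with so few arrays cannot exclude a pairing. The same was not examined for MP and CKIN. Centred ratios of Acet replicate 2 and MP replicate 2 correlated at 0.815, above the 0.554 to 0.732 within Acet. Alternatives tried were no centring, quantile and scale normalization, centring on Gapdh, other filters on missing spots, the compared arrays alone, a replicate block, array set as a term, whole-number ratios as missing, leaving out each replicate, and a test against 0. Array set here means sparse arrays, with more than 1100 missing spots, against the others. It is not a batch given in the labels.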

Additional observations from a re-analysis of the deposited data

Results flagged for a closer look

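The probes below stand out because the Acet group differed from another treatment group by a test of the difference itself. That test does not say which of the groups departed from PBS cultures. Between Acet and MP this was Col1a1, at -2.36 ± 0.335 (SE; limma adjusted p = 0.00452), lower in 3 of 3 Acet arrays. It did not pass with only the compared arrays in the fit (limma adjusted p = 0.242), without centring (0.867), with centring on Gapdh (0.66) or without Acet replicate 3 (0.0558), and the other alternatives kept it, except that this probe was not among those measured on all 21 arrays.

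Between Acet and CKIN, Pcyt1a stood at -2.61 ± 0.403 (limma adjusted p = 0.0143), Idi1 at 2.08 ± 0.433 (0.0488), Tmeff1 at 2.11 ± 0.392 (0.0312), Guca2b at 3.32 ± 0.648 (0.0488), Zeb1 at 1.54 ± 0.318 (0.0488) and a probe with no gene named here at 1.79 ± 0.354 (0.0482). In each of these probes every Acet array lay on the same side of every measured CKIN array. The probes were picked by this test, so that separation adds no support, and its share over all probes is not given. Guca2b had no value on the Injured 4 hr arrays. None of the 6 passed without centring, with centring on Gapdh, with only the compared arrays in the fit (limma adjusted p = 0.251 for each) or without Acet replicate 3. With the array set (sparse arrays against the others) as a term Idi1, Tmeff1, Guca2b and the probe with no gene named did not pass (0.133, 0.0781, 0.0839 and 0.0781), and with the replicate block Guca2b and Zeb1 did not (0.0607 and 0.0533). Leaving out other replicates also ended calls: Idi1, Tmeff1, Zeb1 and the probe with no gene named did not pass without Acet replicate 2, nor did they or Guca2b without CKIN replicate 2, nor Zeb1 without CKIN replicate 1 or 3, nor the probe with no gene named without CKIN replicate 3. In corrected ratios Pcyt1a and Tmeff1 passed, Idi1, Zeb1 and the probe with no gene named did not, and Guca2b had no value.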

How the results depend on the processing

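For Acet against Injured 4 hr, the 62 calls became 3370, all higher, without centring (33 of the 62 then had the opposite sign, and the median of all probes was 1.64), 5, all higher, with centring on Gapdh (median 0.42), 494 with scale normalization, 131 with only the compared arrays in the fit and 1429 (787 higher) in the test against 0. Quantile normalization gave 47 calls, 34% of them higher against 8.06%, the array set as a term 60 (16.7% higher), corrected ratios 43 (25.6%) and probes measured on all 21 arrays 80 of 1624 (23.8%). With the replicate block 86 passed. Omitting a replicate gave 0 to 122. For Acet against MP, the 1 call became 0 without centring, on Gapdh or with only the compared arrays (92, 109 and 156 at an unadjusted limma p under 0.05), 2 in corrected ratios and on probes measured on all 21 arrays, 3 with 1 value a group, 8 with the array set as a term and 0 to 5 on omissions; the replicate block gave 1. For Acet against CKIN, the 6 calls became 2 without centring, 102 with quantile and 20 with scale normalization, 3 on Gapdh, 21 in corrected ratios and on probes measured on all 21 arrays, 19 with 3 values and 49 with 1 value a group, 0 with only the compared arrays (467 unadjusted), 8 with the array set as a term and 0 to 28 on omissions; the replicate block gave 6, of which 4 were among the 6. Replicate omissions leave fewer samples; other causes were not tested.

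Of 27 named calls, 12 turned to a positive difference without centring: Grm6 0.070, Ntf3 0.12, Slit2 0.12, Adrb1 0.16, Htr6 0.18, Slit1 0.18, Bid 0.24, Chrm3 0.34, Col1a1 0.37, Adrb3 0.39, Plau 0.48 and Oprk1 0.49. Genes with no call that passed upward without centring were Nfkbia 0.90, Ccl2 0.99, Hspa1a 1.08 and 1.42, Gapdh 1.23, Ntf3 1.26, Il6 1.38, Col1a1 1.44, Il1b 1.5, Zeb1 1.55, Cnr1 1.60, Gclc 1.67, Sult1a1 1.67, Ptgs1 1.76, Chrm3 1.82, Gfap 1.84 and Nqo1 1.85 (second probes of Ntf3, Col1a1 and Chrm3). Against 0, Nqo1 0.85, Zeb1 1.44, Gapdh 1.45 and Gfap 1.77 did so. Each of the 27 kept its direction under the other alternatives in which it was measured. Calls kept numbered 27 with scale normalization, 19 with quantile, 17 in corrected ratios, 27 with the replicate block and 1 on Gapdh. Without Acet replicates 1, 2 and 3, 2, 23 and 9 were kept, and without Injured 4 hr replicates 1, 0 and 0. Connective tissue probes that fell numbered 0 to 7 on omissions and 4 to 8 under the other alternatives, but 3 on probes measured on all 21 arrays, 12 against 0 and 0 on Gapdh or without centring, where 12 rose. Spot intensities are not given, so signal over background could not be used to limit these statements.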
